A study of Mus musculus with 24 samples.

Results

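A2B1 is 1 of 11 cell lines established from lung tumours of mice with both a c-Myc and a c-Raf transgene. It is represented by 2 of the 24 arrays of the series, namely every array whose title names that line, one with no number and one called replicate 1. It was set against 20 arrays of the other 10 tumour lines, A2C12, B3, betaD5, betaD10, cRAF_cMYC, gammaA3, gammaA7, gammaB8, gammaD1 and gammaD12. All tumour lines carried the same pair of transgenes, came from mice 8 months old, and had been kept for up to 50 weekly passages in DMEM with 10% serum. Since all lines carry both transgenes, no cultured group has only 1 or none. The sources used here give neither the promoters of the transgenes nor whether a line was 1 clone. The line called gammaB8 in its titles is written gammaA8 in another label, and the titles were followed. The 2 control arrays held alveolar type II cells, the surfactant-making cells of the lung lining, isolated from healthy mice without the transgenes. They took no part in any test, and their values stand last as a background level. Of the other lines, 5 had 3 arrays (unnumbered, replicate 1 and replicate 2) and 5 had only an unnumbered one. Whether repeat arrays of a line came from separate cultures is not stated in the labels. The p-values of A2B1 against the other 10 lines measure a spread between repeat arrays of a line, which may be technical. They do not measure the spread between lines. The comparisons within 1 kind of array, and that of the 2 A2B1 arrays with each other, use a spread between lines instead.

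Interferons are secreted proteins that warn cells of viruses. Their receptors act through JAK kinases on a transcription factor complex that contains IRF9 and binds GAAA-rich elements before a set of antiviral genes and genes of antigen display. In some cancer cell lines the same gene set is active without added interferon. c-Myc, in turn, is a transcription factor that drives growth, ribosome assembly and the genes of DNA replication and mitosis, and c-Raf is a kinase that feeds MEK and ERK.

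The values are array signals on a linear scale, brought by the authors to one trimmed mean on every array, and a line's signal is given here as the mean of its arrays on log2(signal + 32), turned back to a signal. All differences are on the log2(signal + 32) scale, A2B1 minus the mean of the other 10 line means. That offset compresses low signals, so a difference from a signal of a few units is smaller than the ratio of the signals. A probe set was called where limma gave an adjusted p below 0.05 and the difference reached 2-fold. In cultures read in bulk, fewer cells of a type and less RNA per cell cannot be told apart.

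The 2 A2B1 arrays were unlike each other. Their Spearman correlation over the tested probe sets was 0.893, while the unnumbered array reached 0.972 with the unnumbered array of B3. The numbered array was nearer to its unnumbered partner than to any array of another line, with 0.784 to 0.880 for the others. The median signal was 75.3 on replicate 1 and 55.3 on the unnumbered array, against 52.996 to 65.6 on the 20 arrays of other lines. For actin, the 3' probe set divided by the 5' one gave 1.32 and 1.11 on those A2B1 arrays, and 1.03 to 1.26 on the arrays of other lines. Replicate 1 was thus the highest of the 22 tumour arrays on median signal and on the actin ratio. For Gapdh the same ratio did not stand out on replicate 1, at 0.805. It was 0.857 on the unnumbered array and 0.743 to 0.852 on the arrays of other lines. Type II cell markers were nearly absent from A2B1: of 10 on the array, 9 were under a signal of 100 on both A2B1 arrays, and the surfactant protein Sftpc gave 24.4 and 61.2, against 6.68 to 43.8 in the other lines and 787 and 11196 in the controls. The label of a lung tumour line can therefore not be checked from them.

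The first question was which genes set line A2B1 apart from the other tumour lines. Genes of the interferon response and of peptide display on class I molecules were higher on both A2B1 arrays, among them Isg15, Usp18, Psmb8 and H2-K1, and so were genes of other roles such as Gsta4 and Lgals3bp. The junction protein F11r, the Ran-binding protein Rangrf and the extracellular superoxide dismutase Sod3 were lower on both. Of 7215 tested probe sets, 107 were higher (1.48%) and 81 lower (1.12%). A stricter count asked in addition that each A2B1 array lay outside all 10 line means on the same side. It held for 89 higher (1.23%) and 36 lower (0.499%) probe sets, which are 74 and 30 of 5496 genes. With no test, both A2B1 arrays lay above all 10 lines for 403 probe sets (5.59%) and below all for 317 (4.39%). The count rested on replicate 1: without that array 14 probe sets were higher and 3 lower, and without the unnumbered array 400 were higher and 460 lower. Without betaD10, 58 probe sets were lower with both arrays below all other lines. By the same contrast, A2C12 had 147 higher and 215 lower probe sets. B3, cRAF_cMYC, gammaA7 and gammaB8, also with 3 arrays, each had between 1 and 4 higher and between 0 and 6 lower. The other 5 lines had 1 array, so their contrast has a larger error and their counts cannot be compared with these.

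**Figure D1:**
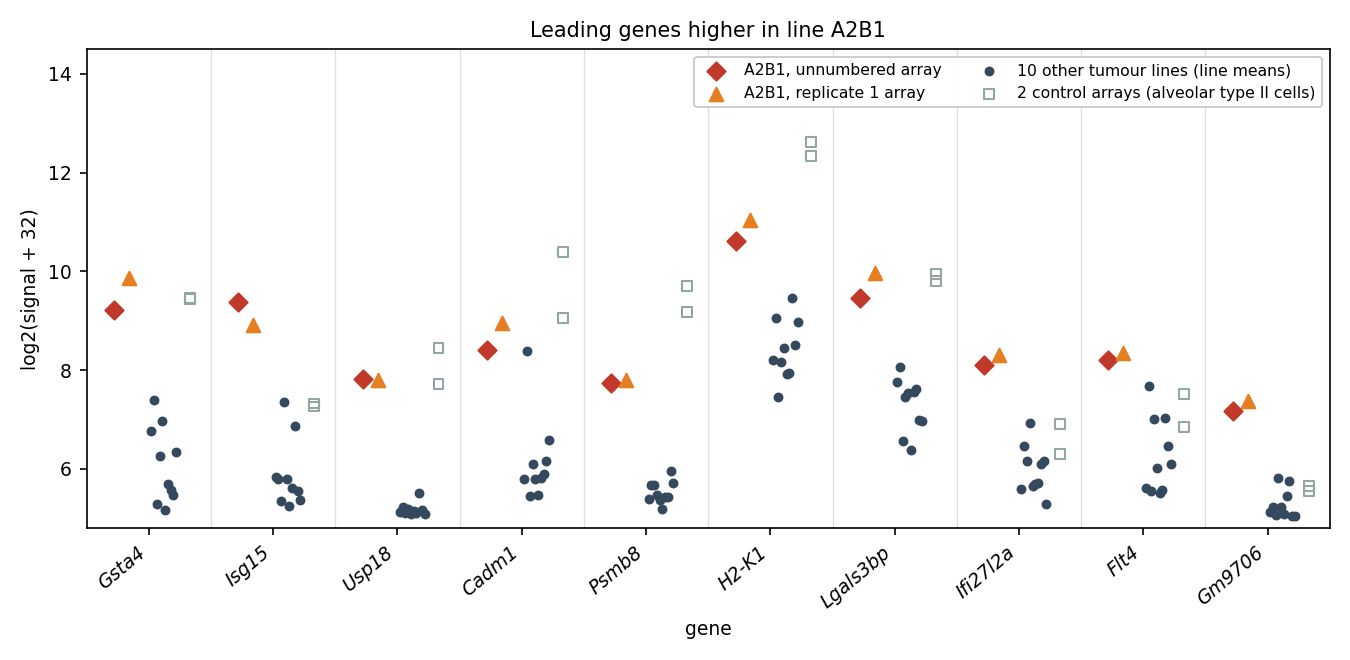
Level, as log2(signal + 32), of the 10 leading genes higher in A2B1, with the unnumbered array (diamond) and replicate 1 (triangle) left of the 10 other line means (dots) and the 2 control arrays (open squares). For each gene both A2B1 arrays lay above all 10 line means, and for Cadm1 line B3, at a signal of 304, came close to the unnumbered array at 309.

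The interferon response was the gene list with the most higher members. Of its 23 tested members, 15 were higher and 0 lower, and 20 had both A2B1 arrays above all 10 other lines. Over all 5496 genes, 89 were higher and 66 lower, and 320 had both arrays above. The median difference over the 23 was 1.68, with 1.30 for the unnumbered array and 1.70 for replicate 1, against 0.02 over all 5496 genes. The same median taken for each of the other 10 lines ran from -0.29 to 0.31. Without replicate 1, 4 of the 23 were still called with the array above all lines, and without the unnumbered array 15 were.

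Isg15 encodes a small ubiquitin-like protein that is attached to other proteins after interferon. Its signal was 630.3 and 451 on the unnumbered and replicate 1 arrays of A2B1. In the other 10 lines it ran from 5.80 in gammaA3 over a median of 19.98 to 131 in betaD10, and the controls gave 128 and 122. Both A2B1 arrays were far above every other line, and also above each single array of another line, of which the highest read 311 (log2 difference 3.27, SE 0.48, adjusted p = 0.00158). Usp18 is the protease that takes ISG15 off again and holds the interferon receptor in check. It read 193 and 191 in A2B1, against 1.89 to 13.7 (median 3.26) in the other lines and 179 and 318 in the controls. A2B1 was thus at the level of control 1, and the other lines were near the floor, with a difference of 2.63 (SE 0.23, adjusted p = 3.7e-05). The enzymes on either side of ISG15 attachment moved the same way: Uba7, which activates it, read 155 and 308, against 35.3 to 86.5 (difference 1.52, SE 0.23, adjusted p = 0.00179). Ube2l6, which carries it, read 81.2 and 113, against 16.4 to 41.6 (difference 1.02, SE 0.23, adjusted p = 0.02). Gm9706, a gene read by a probe set of a family with shared sequence, read 113 and 134, against 0.889 to 24.6.

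Genes that sense RNA or relay the signal were read one by one. Irf9, the DNA-binding part of the interferon-activated complex, read 418 and 505 in A2B1, against 60.8 to 225 (median 84.1) in the other lines. Its difference was 1.94 (SE 0.28, adjusted p = 0.00124), and betaD10 was the nearest line. Ifih1, a sensor of double-stranded RNA, read 143 and 213, against 1.31 to 36.2 (difference 2.06, SE 0.31, adjusted p = 0.00179). Trim25, a ubiquitin ligase that acts on another RNA sensor, was higher with 360.1 and 354, against 111 to 221 (difference 1.14, SE 0.32, adjusted p = 0.0480). Irf1, a factor that is also induced by interferon, read 174 and 353, inside the range of 91.3 to 323 on the unnumbered array, and was not called (adjusted p = 0.629).

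For Ifit3 and Ifit1 the replicate 1 signal was much the higher of the pair. Ifit3, which binds to Ifit1, a protein that takes hold of foreign RNA, read 118 and 743 in A2B1, against 7.11 to 37.3 in the other lines and 31.0 and 30.3 in the controls. Ifit1 itself read 83.6 and 401, against 1.07 to 13.15 in the other lines and 16.3 and 45.7 in the controls. Both A2B1 arrays lay above all other lines and above both controls for this pair, with differences of 2.69 (SE 0.44, adjusted p = 0.00374) for Ifit3 and 2.61 (SE 0.30, adjusted p = 0.000186) for Ifit1. Some GTPases that guard against parasites in vacuoles were called higher, and Irgm1 and Ifi47 were not. Irgm2 read 139 and 463, against 23.4 to 75.9, with a difference of 2.07 (SE 0.27, adjusted p = 0.000694). Igtp read 75.9 and 158, against 7.87 to 24.9, and Gbp3 read 133 and 144, against 3.73 to 49.0. Of the 8 members of the list not called higher, 6 had both arrays above all lines and missed a threshold, as Ifit2 did with 276 and 277, against 48.8 to 248 (adjusted p = 0.0728). The exceptions were Irf1, above, and Ifi202b, with 4.52 and 1.51, against 0.919 to 63.5.

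The stretches before 3 of these genes are shown because they hold runs of the GAAA-rich element to which the relay complex is known to bind. They are the 250 bases before the annotated start in RefSeq (GRCm38.p6), Isg15 at chr4:156200819-156201068 on the minus strand, Ifit1 at chr19:34640639-34640888 on the plus strand and Ifit3 at chr19:34583279-34583528 on the plus strand, each 5′ to 3′ along the gene. Capitals mark every match to GAAANNGAAA on either strand, and overlapping matches run together.
Isg15: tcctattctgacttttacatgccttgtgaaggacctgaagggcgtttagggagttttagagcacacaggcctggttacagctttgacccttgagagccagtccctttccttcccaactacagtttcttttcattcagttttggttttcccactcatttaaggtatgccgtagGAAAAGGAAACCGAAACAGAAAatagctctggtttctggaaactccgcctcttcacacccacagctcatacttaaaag
Ifit1: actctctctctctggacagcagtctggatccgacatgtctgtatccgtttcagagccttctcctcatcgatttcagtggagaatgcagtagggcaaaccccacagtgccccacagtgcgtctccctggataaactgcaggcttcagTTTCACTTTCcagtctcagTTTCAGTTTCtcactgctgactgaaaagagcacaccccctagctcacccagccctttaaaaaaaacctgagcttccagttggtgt
Ifit3: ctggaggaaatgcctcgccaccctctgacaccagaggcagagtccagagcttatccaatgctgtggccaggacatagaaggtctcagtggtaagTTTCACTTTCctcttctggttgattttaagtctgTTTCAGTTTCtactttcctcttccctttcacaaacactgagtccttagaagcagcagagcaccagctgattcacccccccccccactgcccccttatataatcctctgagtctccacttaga
Isg15 held 3 overlapping matches beginning 78, 72 and 66 bases before the start. Ifit1 held 2 on the other strand, from 104 and 85 bases before the start, and Ifit3 held 2, from 156 and 122. The match was present before 821 of 27025 genes (3.04%) in the RefSeq table, taking the first listed start of each, and before 117 of 4473 tested genes (2.62%). It was present before 8 of the 20 tested interferon response genes in that table, including Gbp2, Gbp3, Igtp, Irgm1 and Irgm2, and before 1 of 9 antigen presentation genes. Of the 45 other genes that were higher with both arrays above all lines, 1 held it (2.22%). A match is a run of letters and not a measured binding site.

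Class I molecules carry peptides made by the proteasome to the cell surface for T cells to read. Of 15 antigen presentation genes on the array 11 were tested, under the same filter. Of these 6 were higher and 0 lower, where 89 and 66 of all 5496 genes were. The median difference of the 11 was 1.10 (0.80 and 1.40 for the unnumbered and replicate 1 arrays). With both arrays above all lines 5 were called, and without replicate 1 this was 1. Psmb8, a proteasome subunit swapped in after interferon, read 181 and 191 in A2B1, against 4.38 to 30.3 (median 11.6) in the other lines and 546 and 799 in the controls. The difference was 2.24 (SE 0.22, adjusted p = 5.94e-05), and all other lines lay near the floor. The class I heavy chain H2-K1 read 1528 and 2080.0, against 145 to 669 (median 289) in the other lines and 5126 and 6247 in the controls. The heavy chain H2-D1 read 1435 and 2061, against 349 to 897. Their differences were 2.41 (SE 0.44, adjusted p = 0.0067) and 1.58 (SE 0.21, adjusted p = 0.000799), and both A2B1 arrays stayed below both controls. The probe sets of these heavy chains share sequence with other class I genes, so the genes cannot be told apart with certainty. A further tested probe set of H2-K1 read 163 and 279, against 35.6 to 141.
The light chain B2m read 6442 and 9025, against 1877 to 5119, with a difference of 1.15 (SE 0.30, adjusted p = 0.0331). Tapbp, which loads peptides, read 1212 and 1736, against 425 to 865, with a difference of 1.22 (SE 0.30, adjusted p = 0.0264). The proteasome activator Psme1 read 2089.9 and 2604, against 652 to 1066, with a difference of 1.36 (SE 0.16, adjusted p = 0.000308). All 3 lay above every other line on both arrays. Class II genes did not follow: Cd74, the class II chaperone, read 39.6 and 64.7, against 36.4 to 94.1 (adjusted p = 0.777). H2-DMa was below all other lines on both arrays, with 50.9 and 39.8, against 62.3 to 151, and was not called (adjusted p = 0.0520). Together the interferon and antigen presentation lists held 18 of the 74 genes that were higher with both arrays above all lines.

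**Figure D2:**
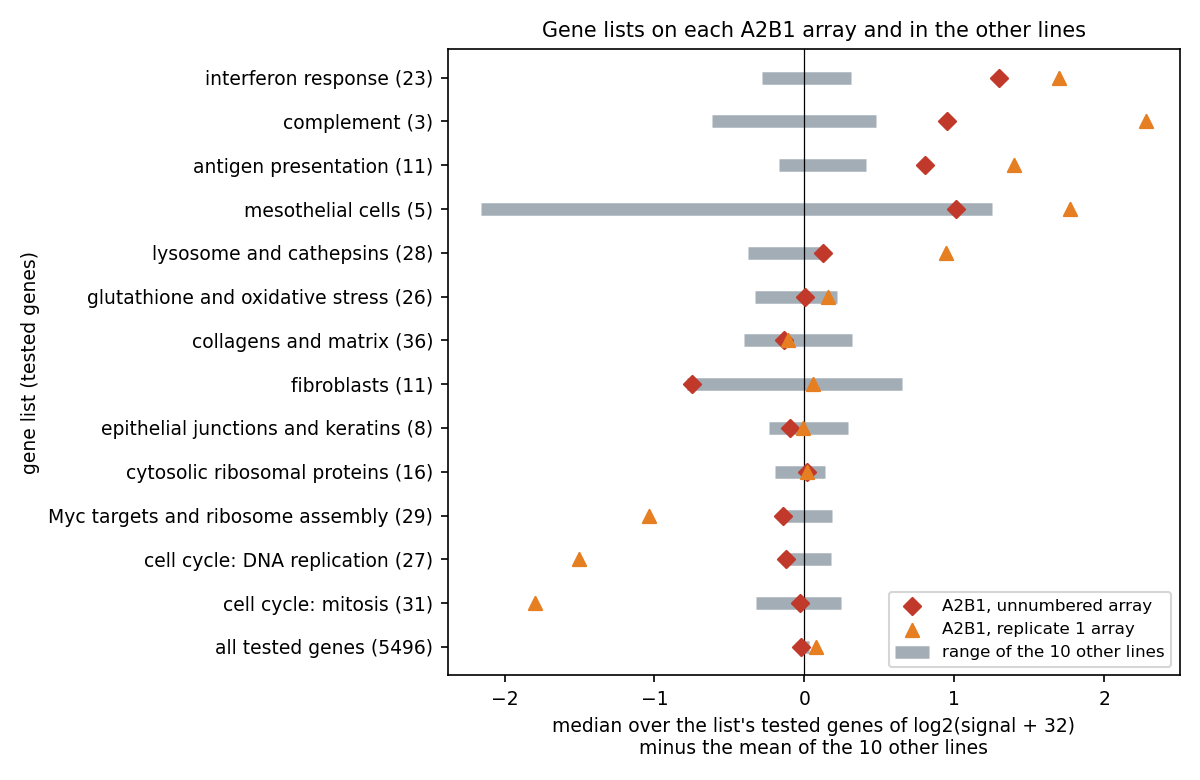
Median over each list's tested genes of log2(signal + 32) minus the mean of the other 10 lines, for the unnumbered A2B1 array (diamond) and replicate 1 (triangle), with the range of the same median over the other 10 lines as a bar. The interferon list lies at 1.30 and 1.70, outside the other lines' range of -0.29 to 0.31, and the mitosis list lies at -0.03 on the unnumbered array and at -1.80 on replicate 1.

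Several of the leading higher genes belong to neither list. Gsta4, a glutathione transferase that clears the lipid aldehyde 4-hydroxynonenal, had the largest difference of the leading genes, with 562 and 899.7 in A2B1, against 4.06 to 135 (median 30.9) in the other lines and 664 and 673 in the controls. Both A2B1 arrays were near the controls and above all lines (difference 3.45, SE 0.64, adjusted p = 0.0087), though 1 single array of another line read 452. Lgals3bp, a secreted glycoprotein that binds galectins, read 678 and 967, against 50.9 to 236 (difference 2.43, SE 0.26, adjusted p = 0.000107). The adhesion molecule Cadm1 read 309 and 463, against 11.7 to 304, with B3 the highest line and 1 single array of another line at 488 (difference 2.54, SE 0.26, adjusted p = 5.96e-05). A further tested probe set of Cadm1 read 138 and 161 in A2B1, against 4.98 to 188, so there B3 was higher. Ifi27l2a, an interferon-induced gene that was not on the list, read 244 and 284, against 6.94 to 89.4 (difference 2.23, SE 0.21, adjusted p = 5.94e-05). Flt4, the receptor for lymphatic growth factors VEGF-C and VEGF-D, read 263 and 296, against 13.6 to 173 (difference 2.03, SE 0.39, adjusted p = 0.00978). Without replicate 1, Usp18, Psmb8, Cadm1, Lgals3bp, Ifi27l2a and Gm9706 were still called higher, and Gsta4, Isg15, H2-K1 and Flt4 were not.

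Of 28 tested lysosome genes 4 were higher and 0 lower, where 89 and 66 of all 5496 genes were. The median difference of the 28 was 0.55. Taken per array it was 0.12 for the unnumbered one and 0.95 for replicate 1, and the other lines ran from -0.38 to 0.15. The cholesterol carrier Npc2 read 2156 and 4440 in A2B1, against 859.9 to 1639 in the other lines (difference 1.22, SE 0.24, adjusted p = 0.0115). Hexa, Man2b1 and Grn, which encode a hexosaminidase subunit, a mannosidase and progranulin, were the others, with differences of 1.07 (SE 0.25, adjusted p = 0.0237), 1.12 (SE 0.25, adjusted p = 0.0199) and 1.12 (SE 0.29, adjusted p = 0.0349). Without replicate 1, 0 of the 28 were called above all lines, and without the unnumbered array 11 were. Of the 3 tested complement genes 2 were higher, where 89 of all 5496 genes were, and without replicate 1 the number called above all lines was 0. C1ra, a protease that starts the complement cascade, read 486 and 1270, against 99.2 to 446 (difference 1.62, SE 0.38, adjusted p = 0.0237). Cd55, which shields cells from complement, read 66.5 and 437, against 4.42 to 63.8 (difference 2.18, SE 0.39, adjusted p = 0.0067), so on the unnumbered array it barely exceeded B3. The cell cycle inhibitor Cdkn2b was higher on both arrays, with 251 and 378, against 46.7 to 163 (difference 1.33, SE 0.37, adjusted p = 0.0470).

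**Figure D3:**
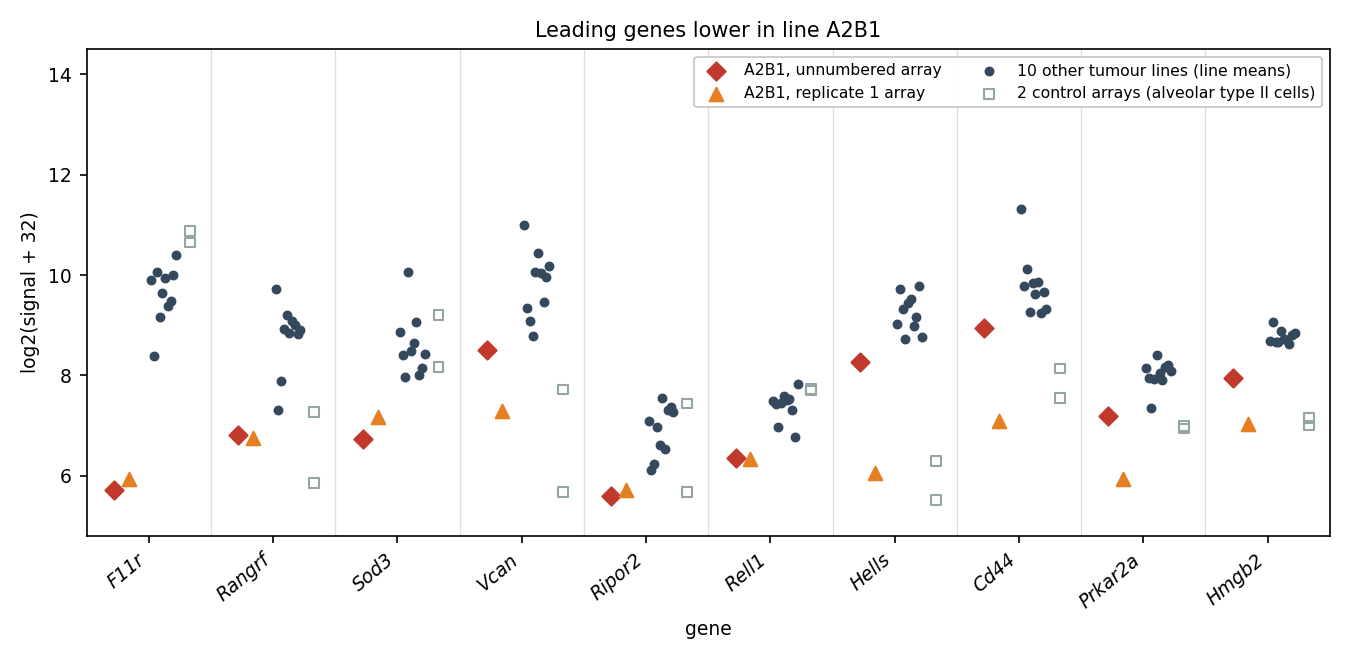
Level, as log2(signal + 32), of the 10 leading genes lower in A2B1, with the unnumbered array (diamond) and replicate 1 (triangle) left of the 10 other line means (dots) and the 2 control arrays (open squares). F11r read 20.6 and 29.4 in A2B1, against 301 to 1318 in the other lines, and for Hells, Cd44 and Prkar2a the unnumbered array lay under the lowest line and replicate 1 lay further under it.

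Among the genes lower in A2B1, F11r stood first. It encodes junctional adhesion molecule A, which helps seal epithelial tight junctions. Its signal was 20.6 and 29.4 in A2B1, against 301 in B3 to 1318 in gammaD12 (median 839.7) in the other lines and 1859 and 1574 in the controls. The difference was -3.81 (SE 0.49, adjusted p = 0.000557), and no array of another line read under 70.8. The arrays of B3 differed, with replicate 1 above the unnumbered one by 2.53. That unnumbered B3 array was the nearest to the unnumbered A2B1 array by correlation. B3 was also the highest other line for Gsta4, Cadm1, Lgals3bp and Flt4, but not for Isg15, Usp18, Psmb8, H2-K1, Ifi27l2a or Gm9706. The list of epithelial junction and keratin genes, which does not hold F11r, had 0 of 8 tested members called. Of all 5496 genes 89 were called higher and 66 lower, so 0 of 8 is near that share. Rangrf, which binds the transport GTPase Ran, read 80.8 and 75.1, against 127 to 806 (difference -1.99, SE 0.20, adjusted p = 5.96e-05). Sod3, which removes superoxide outside cells, read 73.8 and 113, against 219.9 to 1031 (difference -1.66, SE 0.30, adjusted p = 0.0067). The matrix proteoglycan Vcan read 333 and 125, against 412 to 2024 (difference -1.93, SE 0.29, adjusted p = 0.00216). Ripor2, an inhibitor of RhoA, read 16.5 and 20.3, against 37.4 to 155 (difference -1.25, SE 0.23, adjusted p = 0.00874). Rell1 read 49.4 and 49.1, against 76.9 to 195 (difference -1.04, SE 0.22, adjusted p = 0.0174), and its call was lost without gammaD12 as well as without replicate 1. For these 6 genes the level was similar on both A2B1 arrays, apart from Vcan. Without replicate 1, F11r and Rangrf were still called and the other 4 were not.

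The remaining 4 leading genes were lower mainly on replicate 1. Hells, a chromatin remodeller of dividing cells, read 277 and 34.7, against 393 to 851 (difference -2.08, SE 0.40, adjusted p = 0.0107). The hyaluronan receptor Cd44 read 463 and 105, against 575 to 2512 (difference -1.78, SE 0.35, adjusted p = 0.0122). Prkar2a, a regulatory subunit of protein kinase A, read 113 and 29.0, against 132 to 309 (difference -1.46, SE 0.30, adjusted p = 0.0135). The chromatin protein Hmgb2 read 214 and 98.0, against 363 to 501 (difference -1.28, SE 0.32, adjusted p = 0.0301). In each of the 4 the replicate 1 value was much the lower of the pair. Of the 66 lower genes 13 were on a cell cycle list, and these lists held 27 and 31 of all 5496 genes. Called with both arrays below all lines were 3 DNA replication genes and 1 mitosis gene, and without replicate 1 it was 0 of either list. The fibroblast collagen Col1a2 was called lower, with 1005 and 1665, against 706 in A2C12 to 7744 in betaD10 (difference -1.53, SE 0.31, adjusted p = 0.0126), but A2C12 lay below both A2B1 arrays.

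Each A2B1 array was then set against arrays of its own kind, since all lines have an unnumbered array and 5 others have numbered ones. Against the 10 other unnumbered arrays, 2 probe sets were higher (0.0277%) and 0 lower in limma, with 58 higher and 34 lower at an unadjusted p under 0.05 and at least 2-fold. The 2 were Usp18 (difference 2.54, SE 0.37) and Psmb8 (difference 2.11, SE 0.31). No array of another line read above 49.3 for Usp18 or 39.9 for Psmb8, and the lowest median signal of a tumour array was 52.996. Both genes thus passed the filter for testing through the 2 A2B1 arrays alone, which limits what their calls can show. Isg15 (3.33, SE 0.92) and F11r (-3.68, SE 0.94) had larger differences there and larger errors (adjusted p = 0.649 for both). Against the numbered arrays of 5 lines, replicate 1 had 386 probe sets higher (5.35%) and 529 lower (7.33%). After centring each array on its median these became 239 higher and 741 lower. Of the 23 interferon genes 16 were higher there, and of the 11 antigen presentation genes 7. The difference of Isg15 was 3.11 (SE 0.26, adjusted p = 0.00167) and that of F11r -3.65 (SE 0.24, adjusted p = 0.000835). The size of these differences was thus alike for both kinds of array, while the error differed.

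**Figure D4:**
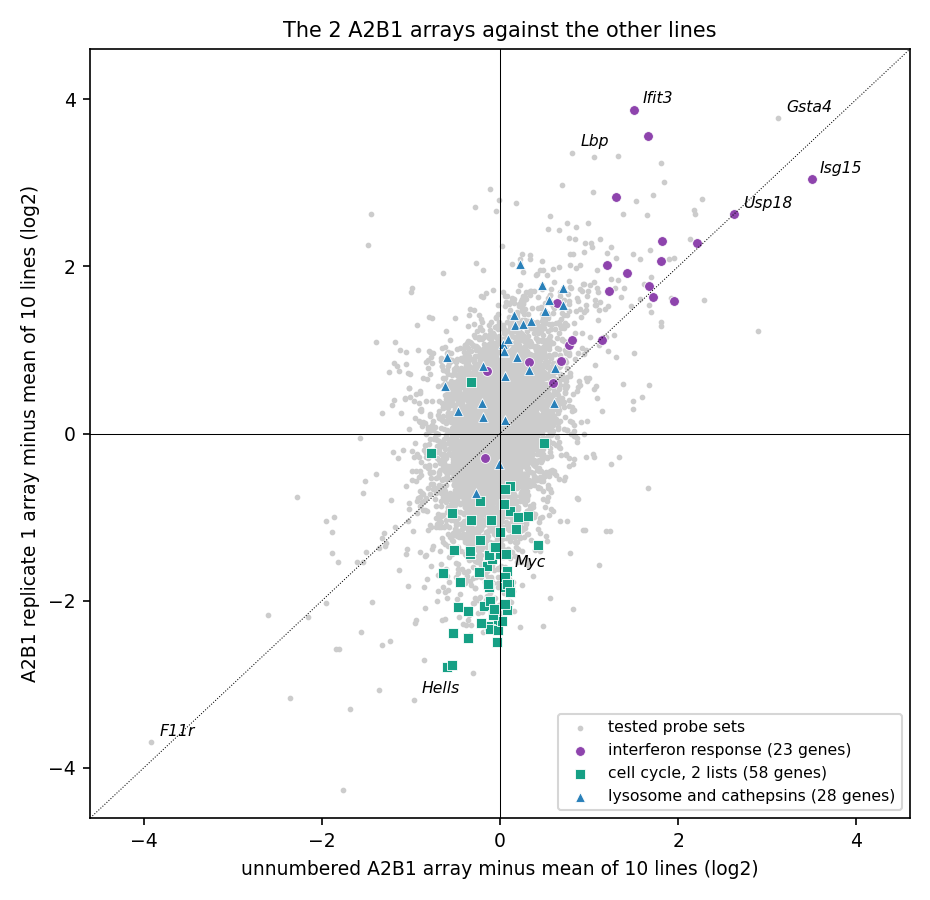
Difference from the mean of the other 10 lines on the log2(signal + 32) scale, unnumbered A2B1 array along the bottom and replicate 1 up the side, for all 7215 tested probe sets (grey), with interferon response (circles), cell cycle (squares) and lysosome genes (triangles) and a dotted line of equality. Most interferon genes lie above 0 on both arrays, while cell cycle genes lie near 0 on the unnumbered array and mostly below -1 on replicate 1, as their medians of -0.12 and -1.50 for DNA replication and -0.03 and -1.80 for mitosis show.

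The final comparison asked what set the 2 A2B1 arrays apart from each other. Replicate 1 was at least 2-fold above the unnumbered array for 506 probe sets (7.01%) and at least 2-fold below it for 433 (6.00%), 939 in all. In the 5 other lines with both kinds of array that total was 233 to 550. The split depended on scaling: after centring arrays on their medians, 206 probe sets were above and 847 below. The median of all tested probe sets was 0.10 higher on replicate 1, and each difference below is read against that shift. Against the same difference in the 5 lines, A2B1 had 9 probe sets higher (0.125%) and 63 lower (0.873%). Leaving out A2C12, B3, gammaA7 or gammaB8 from that fit left 0 calls in either direction, and leaving out cRAF_cMYC left 11 higher and 56 lower. Without those lines the numbers at an unadjusted p under 0.05 and at least 2-fold were 325 to 391 higher and 449 to 513 lower.

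Genes of cell division were lower on replicate 1. Of 51 genes lower in that comparison 22 were on a cell cycle list, namely 16 of 31 mitosis genes and 6 of 27 DNA replication genes, where 51 of all 5496 were. The mitotic kinase Cdk1 read 744 on replicate 1 and 3597 on the unnumbered array, against 3381 to 4828 in the other lines. The proliferation antigen Mki67 read 75.3 on replicate 1 and 473 on the unnumbered array, against 386 to 994. Top2a, which untangles DNA before division, read 128 on replicate 1 and 849 on the unnumbered array, against 614 to 1655. In all 3 the unnumbered array lay inside the range of the other lines, and replicate 1 lay far below it. The log2 difference between the arrays, replicate 1 minus unnumbered, was -2.22 for Cdk1, with -0.68 to 0.21 in the 5 lines (difference of differences -1.99, SE 0.36, adjusted p = 0.0465). For Mki67 it was -2.24, with 0.00 to 0.70 in the 5 lines (-2.59, SE 0.34, adjusted p = 0.0292). For Top2a it was -2.46, with -0.10 to 0.70 (-2.70, SE 0.37, adjusted p = 0.0292). The mitotic kinases Aurka and Bub1 fell likewise, by 2.34 and 2.48 relative to the 5 lines, and so did Rrm2, the regulated subunit of the enzyme that makes deoxyribonucleotides, by 1.93. The tested cell cycle genes beyond those 22 gave no call in that comparison. Over the whole lists, called genes counted in, the median of replicate 1 minus unnumbered in A2B1 was -1.42 for DNA replication and -1.76 for mitosis. In the 5 lines it ran from 0.13 to 0.21 and from -0.01 to 0.26.

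Myc, the mouse's own gene of the transgene's name, was among the calls. It read 85.8 on replicate 1 and 361 on the unnumbered array, against 247 in betaD10 to 491 in A2C12 (median 338) in the other lines and 283 and 79.8 in the controls. Replicate 1 was below every array of every other line, of which the lowest read 181, and the unnumbered array was in mid-range. As a line A2B1 was not called (difference -0.80, SE 0.29, adjusted p = 0.109), and it was called lower without the unnumbered array. Replicate 1 minus unnumbered was -1.74, with 0.06 to 0.79 in the 5 lines (difference of differences -2.04, SE 0.35, adjusted p = 0.0405). Whether the probe set reads the transgene's RNA is not known from the files. Mycn read 61.4 on replicate 1 and 52.5 on the unnumbered array, against 3.64 to 75.5 in the other lines. Mycl read 22.4 on replicate 1 and 5.21 on the unnumbered array, against 17.1 to 118 in the other lines, and neither gene was called for the line (adjusted p = 0.718 for Mycn and 0.145 for Mycl). Of 29 tested Myc target and ribosome assembly genes, 15 were lower on replicate 1 against the numbered arrays, where 427 of all 5496 genes were, and 1 (Srm, spermidine synthase) was called lower for the line. Their median difference was -1.04 on replicate 1 and -0.14 on the unnumbered array. Cytosolic ribosomal proteins had a median of 0.02 on both arrays. For the line, 0 of 16 were called, where 89 of all 5496 genes were higher and 66 lower.

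**Figure D5:**
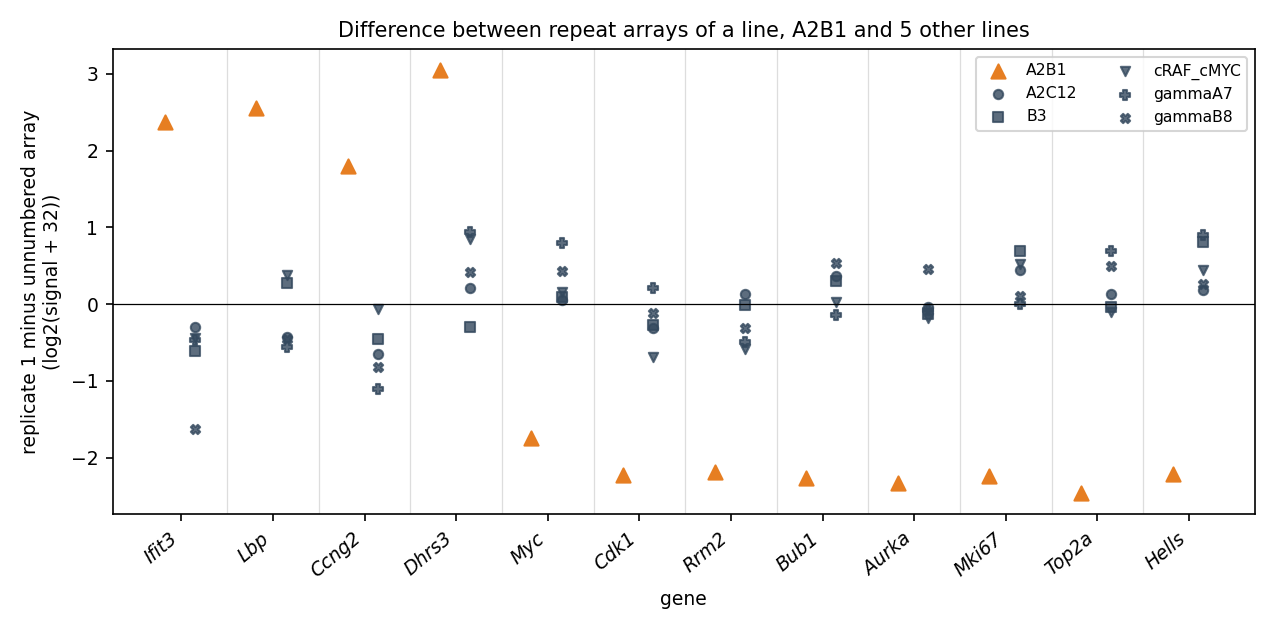
Replicate 1 minus unnumbered array on the log2(signal + 32) scale for 12 genes, in A2B1 (triangle) and in the 5 other lines with both arrays (dark symbols, 1 shape for each line). A2B1 lies above all 5 lines for Ifit3, Lbp, Ccng2 and Dhrs3 and below all 5 for Myc and the cell division genes, for example at -2.46 for Top2a where the others lie between -0.10 and 0.70.

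Genes higher on replicate 1 had mixed roles. The lipopolysaccharide-binding protein Lbp read 1896 on replicate 1 and 296 on the unnumbered array, against 89.6 to 229 in the other lines. It exceeded the 5 lines by 2.71 (SE 0.43, adjusted p = 0.0317) in that difference and was higher for the line as a whole (difference 2.08, SE 0.56, adjusted p = 0.0394). Ccng2, a cyclin linked to growth arrest, read 780.4 on replicate 1 and 200.2 on the unnumbered array, against 89.5 to 227 (difference of differences 2.42, SE 0.39, adjusted p = 0.0342). The retinoid enzyme Dhrs3 read 429 on replicate 1 and 23.8 on the unnumbered array, against 15.7 to 49.3 (2.62, SE 0.46, adjusted p = 0.0418). Ifit3 and Ifit1 were the 2 interferon genes among the calls, at 3.06 (SE 0.48, adjusted p = 0.0317) and 2.04 (SE 0.35, adjusted p = 0.0405). The glutathione transferase Gstt1, called at 2.73 (SE 0.35, adjusted p = 0.0292), lay below the other lines on the unnumbered array, with 7.02, and above them on replicate 1, with 228, against 12.1 to 182. Such opposite sides were found for 186 of 5496 genes. Of them the growth factor subunit Inhba read 57.1 on replicate 1 and 483 on the unnumbered array, against 189 to 437, and is no shared feature of the line. The higher median signal and actin ratio of replicate 1 move with all these differences, while its Gapdh ratio lay inside the range of the other lines. The part of these measures in the differences was not tested.

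Markers of other cell types were read on the same arrays. Myeloid markers gave a summed signal of 1044 and 1877 on the unnumbered and replicate 1 arrays, against 841 to 2281 in the other lines and 49114 and 31786 in the controls, with 17 of 19 under 100 on both A2B1 arrays. Ptprc, which marks white blood cells, read 2.95 and 14.8. Lymphocyte markers summed to 178 and 298, against 149 to 259, with 10 of 11 under 100. Nearly all listed markers of white blood cells were thus low on both A2B1 arrays. Mesothelial markers, genes of the lining of lung and chest wall, were high in several lines. Their 5 tested members summed to 6101 and 8492 in A2B1, against 469 to 6315. Of the 5, 4 lay above all 10 line means on both arrays without a call. Both arrays lay above for 320 of all 5496 genes. Upk3b read 3349 and 4821, against 42.2 to 3212 (adjusted p = 0.288), and Msln read 1069 and 1709, against 55.7 to 1000.4 (adjusted p = 0.206). The other lines spread widely for both genes, with A2C12 the lowest. Of 11 tested fibroblast markers 0 were called higher and 1, Col1a2, lower, where 89 and 66 of all 5496 genes were. The median difference of the 11 was -0.35 (-0.75 for the unnumbered array and 0.06 for replicate 1).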

How the data were processed

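Gene expression was measured on an Affymetrix mouse array in 22 arrays of 11 tumour lines and 2 of control cells. The deposited values are intensity signals on a linear scale, made by the authors with GCOS per the submitters' processing notes. The sources used here give no version, background correction or detection calls. The 2%-trimmed mean was nearly equal on all arrays, so a value is a level relative to the whole of its array. The number of arrays limits the precision. After 66 control probe sets were left out, 12422 remained, 10833 with 1 gene symbol in the platform annotation, 396 with several and 1193 with none. Of these, 7215 with a signal above the array median on at least 2 of 22 tumour arrays were tested. A probe set could pass that filter through the 2 A2B1 arrays alone. A gene stands for its brightest tested probe set with 1 symbol.

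Signals were tested as log2(signal + 32) in limma 3.58.1 (R 4.3.3), with 11 line groups and 11 residual degrees of freedom, and Benjamini-Hochberg adjustment over all tested probe sets. The fits were run on simulated data in which the other lines did not differ, arrays varied independently and no 2-fold demand was made. That check therefore does not cover differences between lines or deviations that arrays share. Lines with 1 array were assumed to vary like the rest. The comparison within unnumbered arrays had 9 residual degrees of freedom, and the 2 comparisons with 5 lines had 4. The lone A2B1 array was assumed there to vary like the other lines.

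The line, the 32 pathway and 14 marker lists and the gene rules were chosen with earlier results of these data known. Lists are described by counts and medians and were not tested. The genes named are up to 10 in each direction that were called with both arrays outside all lines, ordered by the smaller array difference. To these were added leading list members, the Myc family, up to 10 in each direction that separated the 2 arrays, and leading genes on opposite sides. Sftpc, Uba7, Ube2l6, Irf9, Ifih1, Trim25, Irf1, Irgm2, Igtp, Gbp3, Ifit2, Ifi202b, Gbp2, Irgm1, Ifi47, H2-D1, B2m, Tapbp, Psme1, Cd74, H2-DMa, Hexa, Man2b1, Grn and Ptprc were chosen outside the rule after their values were seen. Other scalings, offsets, filters, variance models, array blocks, thresholds and left-out arrays were tried.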

Additional observations from a re-analysis of the deposited data

Results flagged for a closer look

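In the difference between replicate 1 and the unnumbered array, 19 named genes moved in A2B1 unlike in the 5 other lines, by limma at an adjusted p under 0.05. Higher in A2B1 were Ifit3 at 3.06, Gstt1 at 2.73, Lbp at 2.71, Dhrs3 at 2.62, Gm4788 at 2.58, Ccng2 at 2.42, Ifit1 at 2.04 and Gpc4 at 1.95. Lower were Hells at -2.73, Top2a at -2.70, Mki67 at -2.59, Cip2a at -2.56, Bub1 at -2.48, Nup85 at -2.44, Aurka at -2.34, Inhba at -2.34, Myc at -2.04, Cdk1 at -1.99 and Rrm2 at -1.93.

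Among 23 leading or transgene-related genes, 5 had 1 of the 10 other lines standing apart. Chance gives about 1 in 20 for normal values of equal spread. Line means here rest on 1 or 3 arrays, so that rate is only a rough guide. For Usp18 all 10 line means were near the floor, at 1.89 to 13.7. The gap to the nearest line, as a share of the whole range, was 0.660 for Usp18 (gammaB8 highest), 0.614 for Cadm1 (B3 highest), 0.574 for Cd44 (A2C12 highest), 0.532 for Prkar2a (betaD5 lowest) and 0.480 for Sod3 (betaD10 highest).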

How the results depend on the processing

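The 89 higher and 36 lower probe sets with both A2B1 arrays outside all lines fell to 13 and 2 with array weights, of 14 and 2 called. With 1 value per line 37 were called each way, 35 and 22 of them outside, and 35 of the 89 and 20 of the 36 were kept. An offset of 100 gave 70 and 43, with 59 and 21 outside, and 58 of the 89 and 20 of the 36 were kept. At 1.5-fold 208 were called each way, 160 and 99 of them outside, and at 3-fold 38 and 13, with 36 and 9 outside. With only the 6 lines of 2 or 3 arrays 173 were lower, and 142 higher and 136 lower lay outside. An offset of 1 gave 56 lower outside. A filter of 6 of 22 arrays, which the A2B1 arrays alone cannot meet, kept 68 of the 89 and 36 of the 36. Leaving out 1 array at a time gave 14 to 400 higher and 3 to 460 lower, of which 13 to 398 and 2 to 458 lay outside. Both extremes came from the A2B1 arrays. The replicate block, with the number as a term, gave 106 higher and 70 lower, 84 and 36 of them outside, and 81 of the 89 and 33 of the 36 were kept. Of 40 pairs of arrays with the same number in different lines, 29 had deviations correlated above 0.1, and over all 40 the correlation ran from -0.02 to 0.71. Taking the numbers as pairs required every pair to be above 0.1, so the fit without the block was kept, though some lines share deviations by number, with 0.71 for replicate 2 of cRAF_cMYC and gammaA7. The cause of these shifts was not tested.

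Against unnumbered arrays the 2 higher became 0 after quantile normalization, with an offset of 1, without a filter and with a trended robust variance, and 1 after centring. Against numbered arrays the 386 higher became 239 after centring. For replicate 1 minus unnumbered, the 9 higher and 63 lower became 30 and 115 after quantile normalization, 15 and 184 after centring, and 4 and 39 without a filter. An offset of 100 gave 37 higher. In the line fits added after the data were seen, leaving out A2C12, B3, gammaA7 or gammaB8 gave 0 and 0. The 506 probe sets at least 2-fold above became 206 after centring, 942 with an offset of 1 and 200 with an offset of 100. The 433 below became 847 after centring and 261 with an offset of 100. Through these settings 40 named genes were followed for the line and 18 for the difference between the 2 arrays. None of them reversed direction where it was called, but calls were lost under some settings. The genes chosen outside the rule were not followed.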
